A study of Mus musculus with 14 samples.

Results

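The proteasome is the large protease that degrades ubiquitin-tagged proteins, and most of its subunits are made from the *Psm* genes. All 49 genes of this family were taken from the 19525 genes measured in 14 mRNA libraries, by a rule on the symbol alone: *Psm*, a letter from a to g and a number, without pseudogene symbols. The rule left out 2 pseudogene rows. The libraries came from spheroids of 4T1, a mouse mammary carcinoma line that spreads to the lung, grown for 5 days in lung-like medium. The control hairpin was non-targeting (shSCR). Control spheroids received 700 µM aspartate in 4 libraries (ASP shSCR) and none in 3 libraries numbered 2 to 4 (NoASP shSCR). Aspartate was also given to the knockdown spheroids. Their hairpins targeted *Grin2d*, which encodes an NMDA receptor chain (ASP shGRIN2D, n = 3), and *Dhps*, which encodes the enzyme that starts the hypusination of eIF5A (ASP shDHPS, n = 4). Every group carried a lentiviral hairpin in cells selected as a polyclonal population, and each gene was targeted in 1 group only, so that the effect of a target and that of a hairpin cannot be told apart. The RNA was the input of a polysome experiment for which the methods give 4 independent pellets of spheroids in each condition, and p-values measure the spread between the libraries made from them. In a bulk library, fewer cells of a type and less RNA per cell cannot be told apart.

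The core particle of the proteasome is a stack of 4 rings. The outer rings hold the alpha subunits, which gate the entry, and the inner rings hold the beta subunits, of which *Psmb5*, *Psmb6* and *Psmb7* encode the catalytic ones. Interferon induces their replacements *Psmb8*, *Psmb9* and *Psmb10*, which form the immunoproteasome and favour peptides that fit MHC class I. The regulatory particle caps the core and recognises, deubiquitinates, unfolds and threads in the substrate. Its base carries the ATPases *Psmc1* to *Psmc6*, and most of its other subunits are made from *Psmd* genes. Alternative caps are made from *Psme* genes, *Psmf1* encodes an inhibitor, and *Psmg* genes with *Psmd5*, *Psmd9* and *Psmd10* encode assembly chaperones. Subunit genes are known to be transcribed together, with *Nfe2l1* as the factor that raises them when proteasome activity falls short. Of the 49 genes, 46 were counted together below and the 3 immunoproteasome genes apart. The symbol rule also took in *Psmc3ip* and *Psme3ip1*, which are no subunits, and *Psme2b*, a retrocopy of *Psme2* whose reads could be shared with its parent. *Psma8* and *Psmb11* were not analysed here.

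No proteasome gene passed the test with aspartate or with the *Grin2d* hairpin, and the *Dhps* hairpin raised *Psmd8*, *Psmb3* and *Psmb6* by 1.27-fold to 1.39-fold. The promoters of these 3 are shown because they were the members that passed the test, and because a shared factor could act there. Each line gives the 250 bases before the RefSeq transcription start in the build GRCm38.p6, on the strand of the gene, from 5′ to 3′. *Psmd8* lies on the minus strand at chr7:29180674-29180923, *Psmb3* on the plus strand at chr11:97703184-97703433 and *Psmb6* on the plus strand at chr11:70525107-70525356. Capitals mark matches of the searched motifs on either strand.
Psmd8: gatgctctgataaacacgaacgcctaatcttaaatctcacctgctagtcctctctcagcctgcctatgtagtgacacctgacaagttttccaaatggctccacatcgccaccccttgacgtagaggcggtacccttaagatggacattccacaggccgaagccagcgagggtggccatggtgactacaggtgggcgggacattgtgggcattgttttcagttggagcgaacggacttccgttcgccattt
Psmb3: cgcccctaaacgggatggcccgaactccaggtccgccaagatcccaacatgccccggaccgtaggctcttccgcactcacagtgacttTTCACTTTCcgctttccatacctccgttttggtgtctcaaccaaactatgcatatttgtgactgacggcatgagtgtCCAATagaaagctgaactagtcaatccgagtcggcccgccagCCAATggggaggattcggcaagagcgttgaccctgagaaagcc
Psmb6: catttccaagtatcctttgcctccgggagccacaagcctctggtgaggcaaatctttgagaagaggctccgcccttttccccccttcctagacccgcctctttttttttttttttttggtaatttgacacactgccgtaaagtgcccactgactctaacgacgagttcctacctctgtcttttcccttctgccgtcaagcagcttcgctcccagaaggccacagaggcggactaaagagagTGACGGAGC
The motif TGACNNNGC, the core of the antioxidant response element to which *Nfe2l1* and *Nfe2l2* bind, stood 9 to 1 bases before the start of *Psmb6*. *Psmb3* held CCAAT, the box bound by NF-Y, 2 times, and on its other strand GAAANNGAA, a motif of interferon-responsive promoters. *Psmd8* held none of the motifs searched. A window was found for 42 of the 49 members, with 46 windows in all. Of these, 10.9% held TGACNNNGC (*Psmb5*, *Psmb6*, *Psmc6*, *Psmd9* and *Psmd12*), against 10.2% of all 32851 windows. CCAAT was found in 32.6% of member windows and 33.8% of all, GAAANNGAA in 6.52% and 7.13%, and TGACTCAGC in 0% and 0.39%. The shares of member windows were close to those of all windows, and the 3 genes that rose shared none of the motifs searched. Other motifs and bases farther from the start were not searched, and whether a shared factor acts on these genes was not tested.

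Every member was measured at a workable depth. The libraries held 12731123 to 23231378 counts, and 45 of the 46 members had at least 100 counts in every library. *Psme2b* had 57 counts and *Psmb9* 50 counts in the library where each was lowest. Across the 14 libraries, the level per length was highest in the core particle. The median was 133.6 CPM per kilobase over the 7 constitutive beta genes and 121.5 over the 7 alpha genes. It was 86.34 over the 6 ATPases and 76.25 over the 11 *Psmd* subunits of the regulatory particle. The assembly chaperones, which act on the complex while it forms and then leave it, had a median of 17.44 CPM per kilobase. Within the core particle, where every subunit occurs in the same number, the level per length ran from 41.35 for *Psma2* to 176.9 for *Psmb4*, a 4.28-fold range. Lengths were those of the longest coding transcript, so that a gene that uses a shorter form is placed too low on this scale. The immunoproteasome genes lay far below their constitutive counterparts, between 3.442 for *Psmb9* and 16.23 for *Psmb8*.

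**Figure D1:**
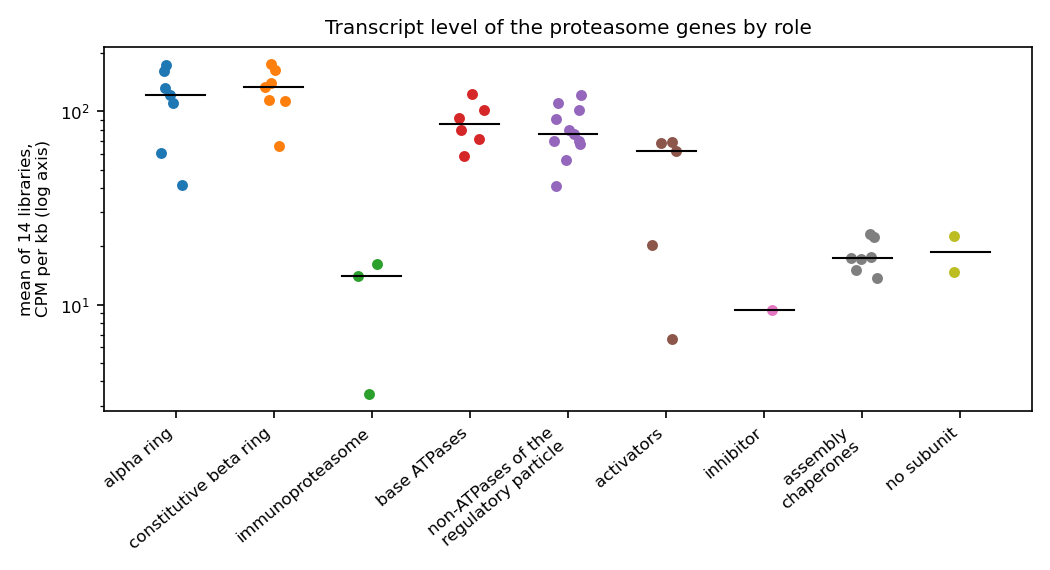
Mean level of each of the 49 genes over the 14 libraries, in CPM per kilobase of the longest coding transcript on a log axis, by role; points are genes and bars are medians. The constitutive core genes lie highest, between 41.35 and 176.9, and the 3 immunoproteasome genes between 3.442 and 16.23.

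The first question was whether aspartate changes proteasome mRNA in control-hairpin spheroids, and no member was called. In this comparison of ASP shSCR with NoASP shSCR, 0% of all genes were called by edgeR at an adjusted p under 0.05. At an unadjusted p under 0.05 there were 0 of the 49 members, against 2.17% of all genes. The DESeq2 Wald test also called 0 members. The median log2 fold change of the 46 members was 0.0057, and 24 of them lay above 0 and 22 below. Summed over the 46 genes, NoASP shSCR libraries 2 to 4 held 5086, 5887 and 5320 CPM. The ASP shSCR libraries 1 to 4 held 5705, 4942, 5604 and 5536 CPM. The groups overlapped, as they did for each of the 49 genes taken alone.

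The 5 members with the smallest p under aspartate differed by little. *Psmd10*, also known as gankyrin and a chaperone of the base, was at 19.04 ± 2.344 CPM (SD, n = 3) without and 21.14 ± 1.811 (SD, n = 4) with aspartate, a log2 difference of 0.15 with a 95% interval of -0.09 to 0.40. *Psma5* and *Psmb4* of the core particle differed by 0.12 and 0.11 on the log2 scale, the activator gene *Psme1* by 0.10 and the catalytic *Psmb7* by 0.09. All 5 had an adjusted p of 1 with edgeR's quasi-likelihood test. The interval of *Psmb5*, which encodes the chymotrypsin-like subunit that bortezomib inhibits, was -0.23 to 0.23 on the log2 scale around a difference of -0.0016, and that of *Psmb6*, the caspase-like subunit, was -0.20 to 0.25. The libraries leave differences within these intervals possible.

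The targeted genes were measured before the hairpins were compared. *Dhps* was at 18.67, 22.11, 20.19 and 16.73 CPM in ASP shSCR and at 5.568, 5.463, 7.615 and 9.075 in ASP shDHPS, a log2 fold change of -1.48 ± 0.15 (SE, adjusted p = 8.31e-06, edgeR). *Grin2d* was at 3.323, 3.23, 3.675 and 4.163 CPM in ASP shSCR and at 2.06, 2.172 and 3.133 in ASP shGRIN2D, a log2 difference of -0.55 ± 0.28 (SE) that did not pass the test (adjusted p = 0.516, edgeR). The knockdown of *Dhps* was therefore seen in its mRNA, and that of *Grin2d*, a gene of few counts, lay in the labelled direction in all 3 libraries without passing. Replicate 2 of ASP shSCR and of NoASP shSCR stood apart from the other libraries, at -25.8 and -19.7 on a first principal component that took 32.3% of the variance, and ASP shDHPS replicate 1 was at 27.6 on the other side. Epithelial markers summed to 4930 to 5080 CPM in ASP shSCR, 4840 to 5060 in NoASP shSCR, 3640 to 3940 in ASP shGRIN2D and 3740 to 4390 in ASP shDHPS. Against ASP shSCR, *Krt7* and *Krt18* were called lower with the *Grin2d* hairpin, where 1.16% of all genes were called. With the *Dhps* hairpin *Krt7*, *Krt19* and *Epcam* were called lower, where 4.22% were. *Cdh1* differed by -0.065 and 0.037 on the log2 scale and was not called. Of the 6 epithelial markers, all 6 were present, while the immune list had 3 of 6 in the table. It summed to 12.6 to 16.9 CPM in ASP shDHPS, 5.82 to 13.1 in ASP shSCR, 9.92 to 10.7 in NoASP shSCR and 8.28 to 10.3 in ASP shGRIN2D. Most of each sum was *Cd68*, which differed by 0.56 ± 0.18 (log2, SE) between ASP shDHPS and ASP shSCR (adjusted p = 0.0884, edgeR), while *Ptprc*, the pan-leukocyte CD45, was at 0.0535 to 0.648 CPM. The fibroblast list had 2 of 6 and summed to 22.7 to 40.7 CPM. Nearly all of this sum was *Pdgfra*, as *Dcn* had at most 1 count in any library. The endothelial list had 2 of 4 in the table and summed to 0 to 0.55 CPM. The part of these shifts in the values below was not tested.

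With the *Grin2d* hairpin, no member was called either, and the largest differences were those of the immunoproteasome. Of all genes, 1.16% were called in this comparison with ASP shSCR. *Psmb8*, the inducible counterpart of *Psmb5*, was at 35.28, 35.52 and 32.39 CPM in ASP shGRIN2D. It was at 25.27, 30.18, 17 and 21.05 CPM in ASP shSCR and at 31.16, 19.31 and 16.85 in NoASP shSCR. All 3 ASP shGRIN2D libraries thus lay above all 7 shSCR libraries. The log2 difference from ASP shSCR was 0.56 ± 0.18 (SE), with an adjusted p of 0.182 (edgeR). *Psmb9*, the counterpart of *Psmb6*, was at 5.82, 7.398 and 5.932 CPM against 3.323, 7.128, 3.675 and 3.928 CPM in ASP shSCR. Its groups overlapped through ASP shSCR replicate 2 alone, and its difference was 0.50 ± 0.26 (SE, adjusted p = 0.521, edgeR).

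These 2 immunoproteasome genes depended on the replicates numbered 2. Their levels in shSCR were highest there, with *Psmb8* at 30.18 and 31.16 CPM and *Psmb9* at 7.128 and 5.835 CPM, while the summed level of the 46 other members was lowest there. Without replicate 2 of both shSCR groups, *Psmb8* differed by 0.70 (adjusted p = 0.00569, edgeR) and *Psmb9* by 0.82 (adjusted p = 0.0336, edgeR) on the log2 scale. *Psmb8* also passed without ASP shSCR replicate 2 alone, at 0.70 (adjusted p = 0.044, edgeR). *Psmb10*, the third replacement subunit, did not go with them: it was at 17.61, 15.73 and 14.6 CPM against 19.54, 24.06, 16.91 and 17.83 CPM in ASP shSCR, a difference of -0.29 ± 0.13 (SE, adjusted p = 0.444, edgeR).

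Expressed as a share per length, *Psmb8* made up 23.4% ± 0.98 (SD, n = 3) of the summed CPM per kilobase of *Psmb8* and *Psmb5* in ASP shGRIN2D and 18.7% ± 4.5 (SD, n = 4) in ASP shSCR. It was 18.9% ± 1.8 (SD, n = 4) in ASP shDHPS and 18.4% ± 7.4 (SD, n = 3) in NoASP shSCR. *Psmb9* made up 1.44% to 4.76% of the sum with *Psmb6* over all libraries, and *Psmb10* 8.90% to 14.6% of that with *Psmb7*. The shares of replicate 2 in both shSCR groups, 24.96% and 27.02% for *Psmb8*, lay above the highest ASP shGRIN2D library, at 24.53%.

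Genes of interferon signalling and MHC class I loading were examined beside the immunoproteasome, as a list of 23. In the *Grin2d* comparison 4 of the 23 were called higher and 1 lower, where 1.16% of all genes were called. The higher ones were *B2m*, the light chain of MHC class I, at 0.58 ± 0.09 (log2, SE), the heavy chains *H2-K1* at 0.53 ± 0.09 and *H2-D1* at 0.54 ± 0.09, and *Nlrc5*, a transactivator of MHC class I genes, at 0.67 ± 0.15. *Ifngr1*, a chain of the interferon gamma receptor, fell by 0.69 ± 0.10. The adjusted p of these 5 lay between 0.000769 and 0.0311 (edgeR). The call of *Nlrc5* was lost in 5 of the 7 fits that left out 1 library, with adjusted p values of 0.0222 to 0.228 (edgeR). The median over the 23 genes was 0.066, with 14 of them above 0.

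Outside the immunoproteasome, the *Grin2d* comparison gave 36 of 46 members above 0 and 10 below, with a median log2 fold change of 0.054. Over the 10224 genes of at least 5 CPM the median was 0.0059, and 51.6% lay above 0. Under 1500 bases 78.3% of the members lay above 0, against 58.9% of the other genes of that length. From 1500 to 3000 bases the shares were 73.7% and 52.1%. At an unadjusted p under 0.05 there was 1 of the 46, *Psmd8*, against 13.4% of genes of at least 5 CPM. *Psmd8*, a lid subunit of the regulatory particle, was at 158.3, 163.8 and 156.6 CPM against 145.2, 116.9, 140.7 and 143.8 CPM in ASP shSCR (0.22 ± 0.10 on the log2 scale, SE, adjusted p = 0.398, edgeR). *Psmc6*, an ATPase of the base, was at 113.5, 127.3 and 121.6 CPM against 133.2, 132.7, 137.2 and 135 CPM, a difference of -0.15 ± 0.09 (SE, adjusted p = 0.559, edgeR). In 6 of the 46 genes all ASP shGRIN2D libraries lay above all ASP shSCR libraries and in 2 all lay below, where 7.65% of genes of at least 5 CPM lay above and 9.46% below. Without replicate 2 of both shSCR groups, 29 of 46 lay above 0 and the median was 0.03. With a correction for GC content and transcript length, added after the data were seen, 35 of 46 lay above 0. The median was then 0.056, against 0.012 for genes of at least 5 CPM.

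**Figure D2:**
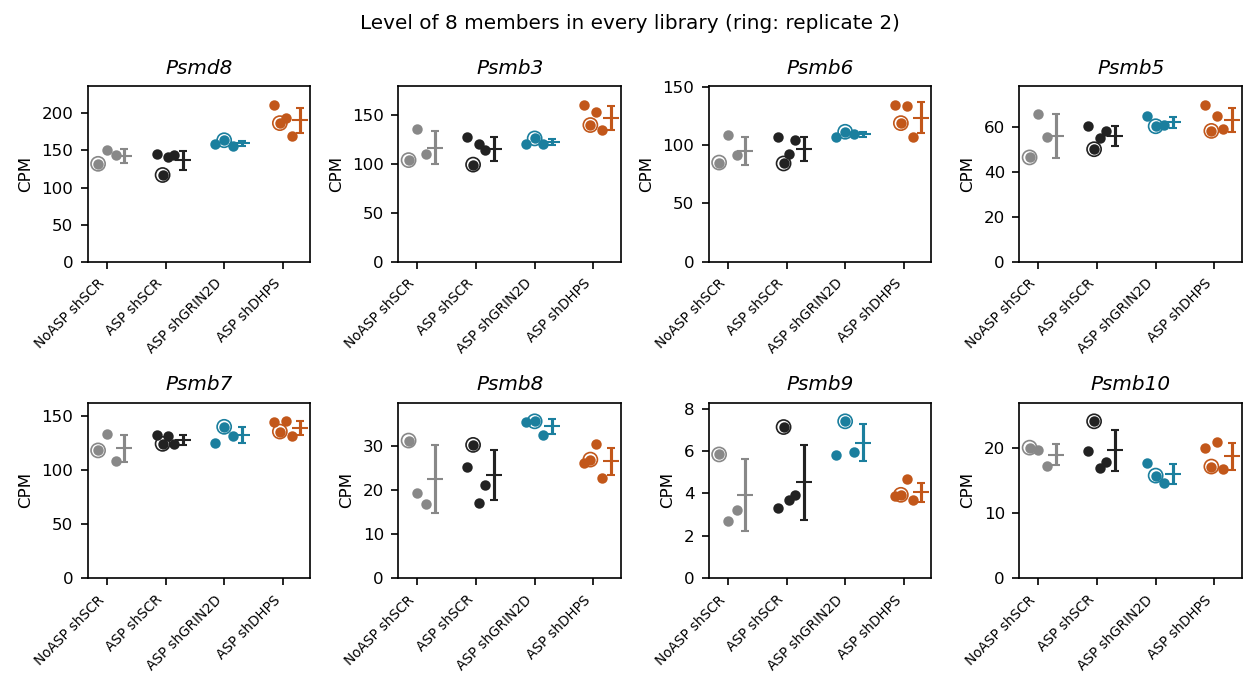
Level in CPM of 8 members in every library, from 0; points are libraries, the bar beside them gives mean and SD of the group, and a ring marks replicate 2. *Psmd8* lies between 170.1 and 211.6 CPM in ASP shDHPS and at or below 150.8 in all shSCR libraries, while *Psmb8* is highest in ASP shGRIN2D and, among shSCR, in the ringed libraries.

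The *Dhps* hairpin raised 3 of the 46 members and lowered none, against 4.22% of all genes called in either direction. Among genes of at least 5 CPM, 2.8% were called higher, so that the count of called members is not far from that of other genes. *Psmd8* was at 211.6, 186.9, 193.7 and 170.1 CPM in ASP shDHPS. In ASP shSCR it was at 145.2, 116.9, 140.7 and 143.8 CPM. All 4 libraries lay above all 4 of the controls, and above the 3 of ASP shGRIN2D. The log2 fold change was 0.48 ± 0.09 (SE), or 1.39-fold, with an adjusted p of 0.00346 (edgeR). *Psmd8* was called in this comparison without any 1 library, with log2 fold changes of 0.41 to 0.53.

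*Psmb3* and *Psmb6*, both beta subunits of the inner rings, made up the other calls. *Psmb3*, which has no catalytic site, was at 160.5, 139.8, 153 and 134.3 CPM against 127.7, 99.29, 120.3 and 114.5 CPM in ASP shSCR. Its log2 fold change was 0.35 ± 0.10 (SE, adjusted p = 0.044, edgeR). *Psmb6* was at 134.4, 118.7, 133.2 and 106.7 CPM against 106.5, 84.14, 92.08 and 104.2 CPM, a log2 fold change of 0.35 ± 0.10 (SE, adjusted p = 0.0472, edgeR). The groups did not overlap for either gene, but for *Psmb6* the gap was narrow, between 106.7 and 106.5 CPM. Both calls were lost without each of ASP shDHPS replicates 1, 2 and 3 and of ASP shSCR replicates 2, 3 and 4, where the adjusted p lay between 0.0583 and 0.16 for *Psmb3* and between 0.06 and 0.164 for *Psmb6* (edgeR), with log2 fold changes of 0.28 to 0.37 and 0.29 to 0.39.

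The next members by p lay just outside. *Psmd4*, a ubiquitin receptor of the regulatory particle, was at 186.4, 180.1, 183.8 and 167.3 CPM in ASP shDHPS against 153.5, 149.5, 155.1 and 144.2 CPM in ASP shSCR. It differed by 0.25 ± 0.07 (SE, log2) without passing (adjusted p = 0.0521, edgeR), and it passed in the DESeq2 Wald test. *Psmc5*, an ATPase of the base, was at 148.3, 143, 157.3 and 145.2 CPM against 130.8, 105.8, 137.7 and 120.3 CPM (0.26 ± 0.09, SE, adjusted p = 0.122, edgeR). The libraries of the groups did not overlap for either gene. The other catalytic genes, *Psmb5* and *Psmb7*, differed by 0.17 ± 0.10 and 0.12 ± 0.08 (log2, SE), with 95% intervals that reached down to -0.04 and -0.05.

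**Figure D3:**
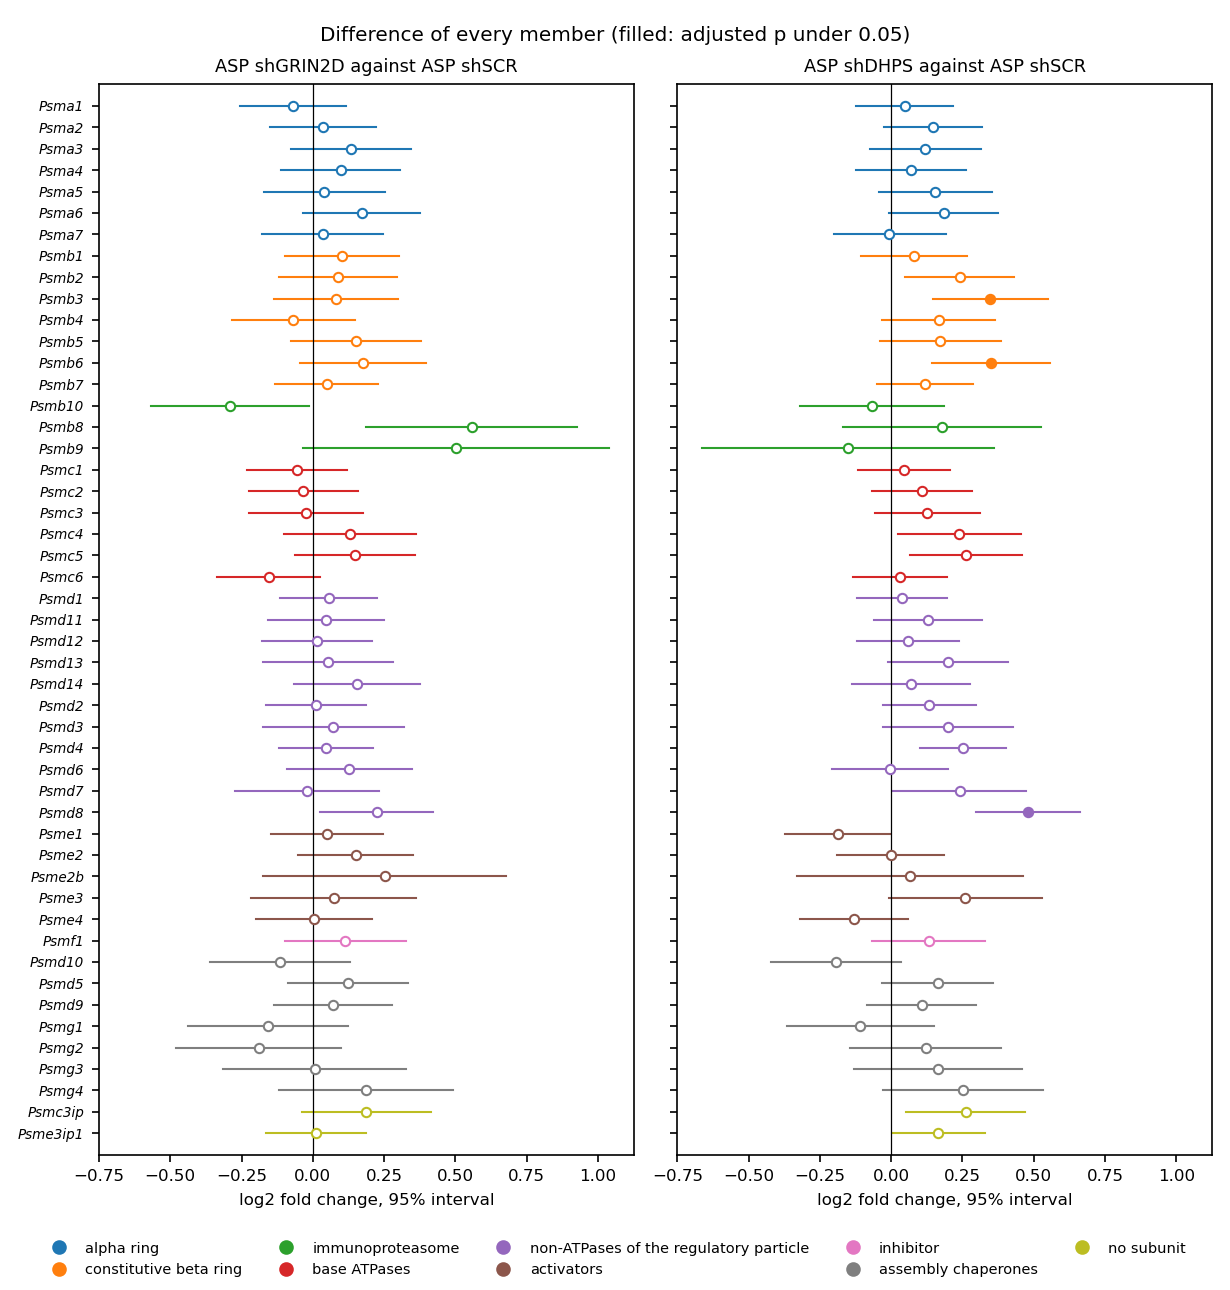
Log2 fold change of each of the 49 genes against ASP shSCR, with its 95% interval, for the *Grin2d* hairpin on the left and the *Dhps* hairpin on the right; colours give the role and filled points passed an adjusted p of 0.05. No point is filled on the left, where *Psmb8* and *Psmb9* lie farthest out at 0.56 and 0.50, and *Psmd8*, *Psmb3* and *Psmb6* are filled on the right. Both panels share the ASP shSCR libraries.

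By role, the differences in the *Dhps* comparison lay mostly above 0 in the rings and the regulatory particle, and on both sides of 0 in the alternative caps. All 7 constitutive beta genes lay above 0, with 2 called and a median of 0.17 on the log2 scale. All 6 ATPases also lay above 0, with a median of 0.12 and none called, and 6 of 7 alpha genes did, with a median of 0.12 and none called. Of the 11 *Psmd* subunits of the regulatory particle, 10 lay above 0, with 1 called and a median of 0.13. The 5 activator genes split, with 2 above and 3 below 0 and a median of -0.0016. *Psme1*, the alpha chain of the interferon-inducible cap, was at 76.01, 63.76, 77.28 and 65.61 CPM against 82.77, 83.31, 75.71 and 80.36 CPM (-0.19 ± 0.09, SE, adjusted p = 0.246, edgeR). Of the 7 assembly chaperones 5 lay above 0 and none was called, and *Psmf1*, the inhibitor, differed by 0.13. The 3 immunoproteasome genes differed by 0.18 (*Psmb8*), -0.15 (*Psmb9*) and -0.07 (*Psmb10*), and none was called.

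Together, 39 of the 46 members (84.8%) lay above 0 in the *Dhps* comparison, where 49.2% of genes of at least 5 CPM did. The median log2 fold change was 0.13 for the members and -0.0039 for those genes. Summed over the 46 genes, the ASP shDHPS libraries held 6349, 5761, 6137 and 5748 CPM and the ASP shSCR libraries 5705, 4942, 5604 and 5536 CPM. All 4 knockdown libraries lay above all 4 controls while NoASP shSCR replicate 3, at 5887 CPM, lay above 2 of them. In 11 of the 46 genes all ASP shDHPS libraries lay above all ASP shSCR libraries and in 0 all lay below, against 7.88% of genes of at least 5 CPM that lay above and 8.85% that lay below. At an unadjusted p under 0.05 there were 10 higher and 1 lower, or 11 of 46, against 28.4% of genes of at least 5 CPM in either direction. Of those 10224 genes, 1337 were higher and 1566 lower. Among the 1439 of them with transcripts under 1500 bases, 301 were higher and 61 lower.

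The length of the transcript moved with this shift. Short transcripts as a class had a higher median in ASP shDHPS, and the members were short, with a median length of 1490.5 bases against 3183.5 for genes of at least 5 CPM. Among other genes of at least 5 CPM, the median log2 fold change was 0.11 over 1415 transcripts under 1500 bases, 0.06 over 3221 of 1500 to 3000 bases and -0.07 over 5500 longer ones. The 23 members under 1500 bases had a median of 0.15, and 73.9% of them lay above 0 against 71.7% of the other short transcripts. The 19 members of 1500 to 3000 bases had a median of 0.13, and all 19 lay above 0 against 61.1% of the other genes of that length. Lengths were again those of the longest coding transcript, so that a gene that uses a shorter form can stand in too long a class. *Psma2* and *Psma3* were placed here at 2911 and 2846 bases, while the other alpha genes had 1042 to 1239. After each library was corrected for GC content and transcript length, an alternative chosen after the data were seen, the median of the 46 members was 0.07 in place of 0.13 and 29 of 46 lay above 0. *Psmd8*, *Psmb3* and *Psmb6* remained called, at 0.42, 0.23 and 0.25 on the log2 scale (adjusted p of 0.00114, 0.0481 and 0.0478, edgeR), and *Psme1* was then called lower. The part of length in the shift was not tested otherwise.

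**Figure D4:**
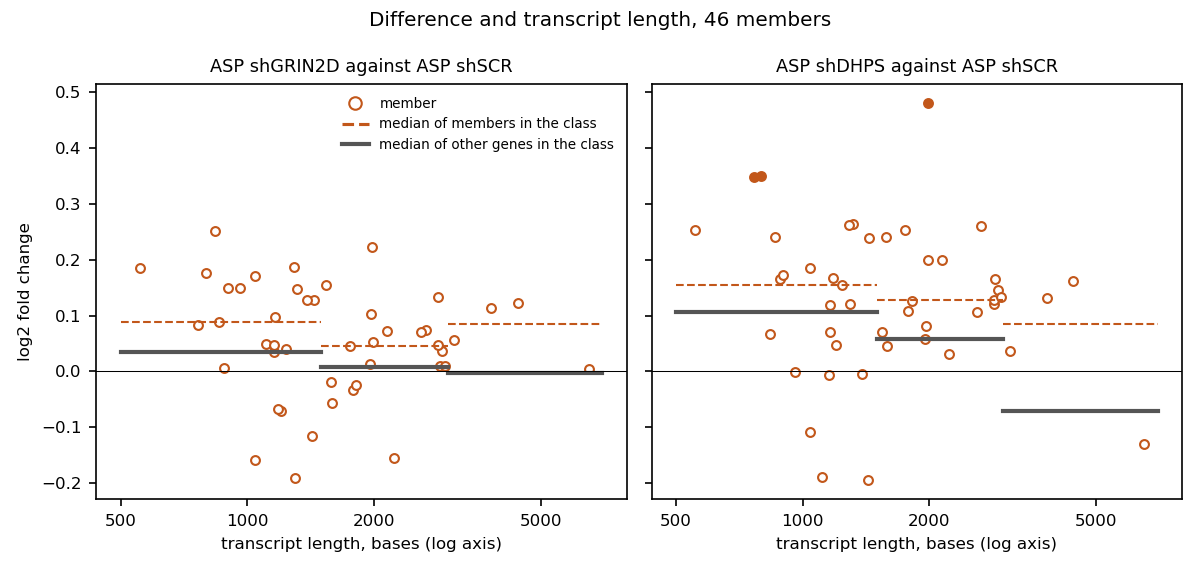
Log2 fold change against ASP shSCR and transcript length in bases, on a log axis, for the 46 members; filled points passed an adjusted p of 0.05, dashed lines are medians of the members in each length class and grey lines medians of the other genes of at least 5 CPM. In the *Dhps* panel the grey line steps down from 0.11 to 0.06 and -0.07 as transcripts get longer, and the members' medians lie at 0.15, 0.13 and 0.08.

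Between the hairpins, no member was called, against 2.82% of all genes called in ASP shDHPS against ASP shGRIN2D. The members with the smallest p were those named above. *Psmd8* differed by 0.26 ± 0.10 (log2, SE, adjusted p = 0.182, edgeR), *Psmd4* by 0.21 ± 0.08 (adjusted p = 0.195) and *Psmb3* by 0.27 ± 0.10 (adjusted p = 0.214). All 3 had no overlap of the libraries. *Psmb9* was at 3.887, 3.931, 4.699 and 3.683 CPM in ASP shDHPS against 5.82, 7.398 and 5.932 CPM in ASP shGRIN2D, a difference of -0.65 ± 0.26 (SE, adjusted p = 0.216, edgeR). *Psmb8* was at 26, 26.85, 30.3 and 22.79 CPM against 35.28, 35.52 and 32.39 CPM (-0.38 ± 0.18, SE, adjusted p = 0.323, edgeR), and *Psme1* differed by -0.24 ± 0.10 (SE, adjusted p = 0.22, edgeR). *Psmb10*, also interferon-inducible, differed in the other direction, by 0.23 ± 0.13 (SE, adjusted p = 0.45, edgeR). At an unadjusted p under 0.05 there were 7 of the 46 higher and 1 lower, against 20.5% of genes of at least 5 CPM in either direction. Of those 10224 genes, 1006 were higher and 1090 lower. In 8 of 46 members all ASP shDHPS libraries lay above all ASP shGRIN2D libraries, against 11.2%. In 1, *Psme1*, all lay below, against 10.3%. Of the 46 members 34 lay above 0, with a median of 0.09, where 50.5% of genes of at least 5 CPM lay above 0. Under 1500 bases 69.6% of the members did, against 68.2% of the other genes of that length. From 1500 to 3000 bases the shares were 84.2% and 62.1%. After the correction for GC content and length 26 of the 46 lay above 0, with a median of 0.02. Without replicate 2 of both shSCR groups, which enter this comparison through the spread alone, *Psmb9* passed at -0.65 (adjusted p = 0.0366, edgeR).

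Genes that work in or with the proteasome but do not match the symbol rule were taken from a list of 31, of which 30 were in the table. None was called with aspartate or with the *Grin2d* hairpin. With the *Dhps* hairpin 1 of the 30 was called, against 4.22% of all genes. This was *Zfand2a*, whose product binds the regulatory particle under arsenite stress, which was higher at 0.36 ± 0.09 (log2, SE, adjusted p = 0.0219, edgeR). It was at 156.8, 146.2, 178.2 and 177 CPM against 119.1, 148.2, 125.9 and 118.9 CPM, and the libraries overlapped through ASP shSCR replicate 2. The call was lost in 5 of the 8 fits that left out 1 library, with adjusted p values of 0.00883 to 0.0848 (edgeR). *Nfe2l1* was at 347.5, 469.8, 455 and 482.2 CPM in ASP shDHPS against 374.7, 424.2, 383.9 and 367.2 CPM in ASP shSCR (0.18 ± 0.09, SE, adjusted p = 0.303, edgeR). It was called without ASP shDHPS replicate 1, at 0.28 (adjusted p = 0.0407, edgeR), and with the correction for GC content and length, at 0.27 (adjusted p = 0.00922, edgeR). It was lowest of these 8 in ASP shDHPS replicate 1, the library with the highest summed level of the proteasome genes. That library was also at 27.6 on the first principal component, and whether *Nfe2l1* bears on the members was not tested. In ASP shGRIN2D *Nfe2l1* was at 450.8, 429.7 and 451.5 CPM, above all 7 shSCR libraries (0.20 ± 0.10 against ASP shSCR, SE, adjusted p = 0.519, edgeR). *Nfe2l2*, the related factor of the oxidative stress response, differed by 0.0027 and -0.032 with the *Grin2d* and *Dhps* hairpins. Of the interferon and antigen processing list, *B2m* (0.48 ± 0.08) and *Tapbp*, which loads peptides (0.45 ± 0.09), were called higher with the *Dhps* hairpin and *Jak2* lower (-0.81 ± 0.12), with adjusted p values of 0.000599 to 0.00739 (edgeR), or 3 of 23 against 4.22% of all genes. Between the hairpins, where 2.82% of all genes were called, *Ifngr1* was called higher in ASP shDHPS (0.90 ± 0.10) and *H2-K1* and *H2-D1* lower (-0.39 ± 0.09 and -0.42 ± 0.09, adjusted p of 0.0121 and 0.00998, edgeR), and these last calls were lost without ASP shGRIN2D replicate 1 or 3, where the adjusted p lay between 0.0572 and 0.0822 (edgeR).

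Within groups, most members varied together from library to library. The log2 CPM of each member, centred within its group, was correlated over the 14 libraries with the mean of the other 45 members, as a description. The median Pearson r was 0.763, and 36 of 46 (78.3%) lay above 0.5. For the other 10176 genes of at least 5 CPM, correlated with the mean of the 46, the median was 0.0075 and 25.1% lay above 0.5, and for the 1415 of them under 1500 bases the median was 0.576 and 58.3% did. Short transcripts thus shared much of the pattern, and all points share the libraries. The highest values were those of *Psmb3* (0.976), *Psmd13* (0.959), *Psmc2* (0.949) and *Psmd7* (0.946), from the inner ring, the lid and the base. The 4 members below 0 were *Psme4* (-0.601), which encodes a nuclear activator and has the longest transcript of the family, *Psmd1* (-0.229), *Psmd3* (-0.205) and *Psme3ip1* (-0.122). *Psmb9* (-0.593), *Psmb8* (-0.324) and *Psmb10* (-0.0447) also lay below 0.

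In most libraries the members lay largely to one side of the mean of their group. In ASP shSCR replicate 2, 39 of the 46 members lay below the mean of the group, with a mean deviation of -0.13 on the log2 scale, while *Psmb8*, *Psmb9* and *Psmb10* lay above it by 0.40, 0.71 and 0.31. NoASP shSCR replicate 2 gave 37 of 46 below, with *Psmb8* and *Psmb9* above the mean by 0.52 and 0.64. Among the 7 shSCR libraries, ASP shSCR replicate 2 held the lowest value for 24 members (52.2%), against 23.7% of genes of at least 5 CPM, and NoASP shSCR replicate 3 the highest for 24 (52.2%), against 18.2%. In ASP shDHPS the members were highest in replicates 1 and 3, where 7 and 10 of 46 lay below the mean of the group, against 37 in each of replicates 2 and 4. The median CV of the 46 members within a group was 5.46% in ASP shGRIN2D, 7.87% in ASP shSCR, 8.21% in ASP shDHPS and 10.7% in NoASP shSCR.

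**Figure D5:**
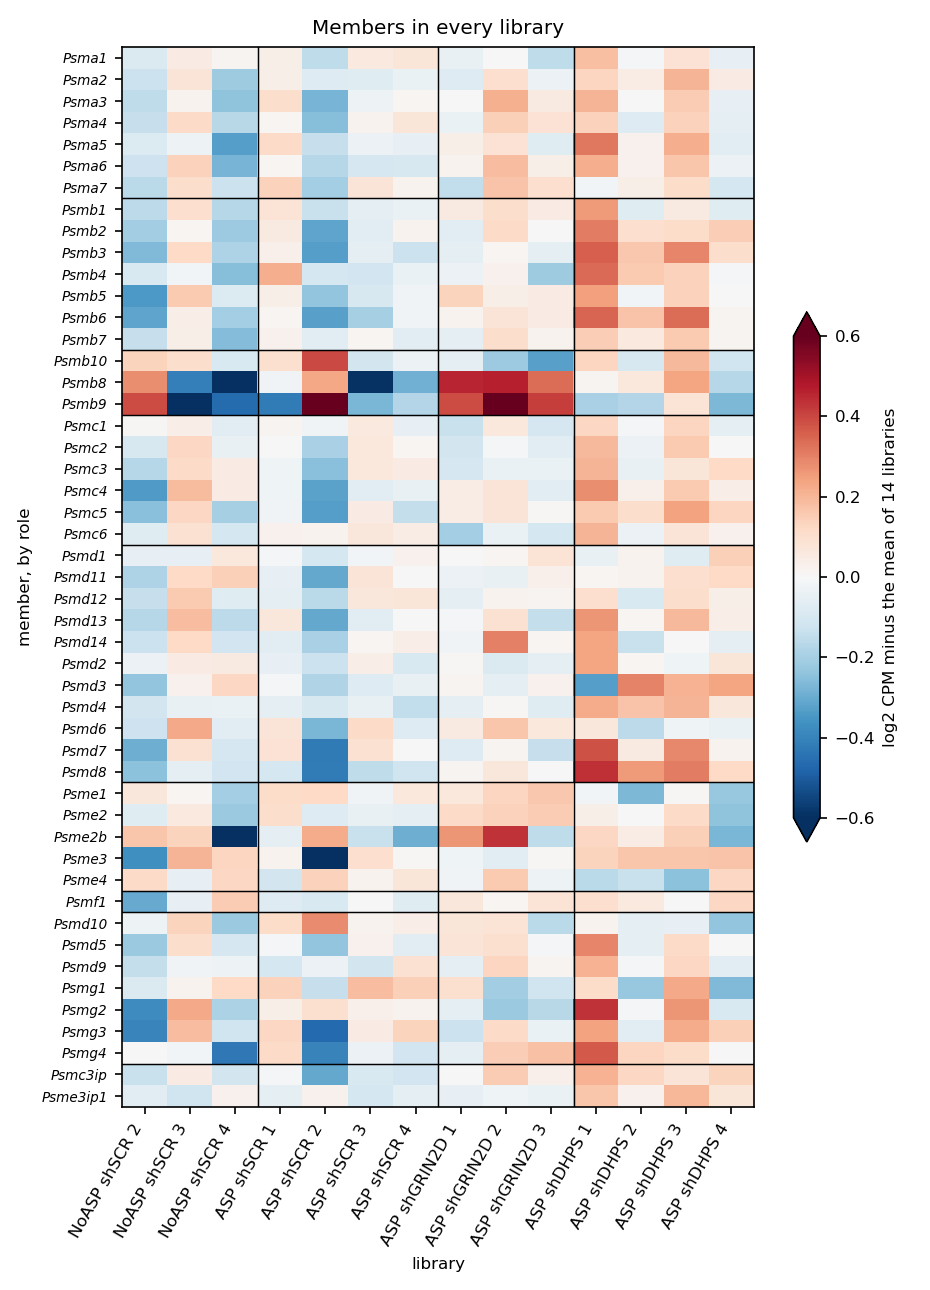
Level of each of the 49 genes in each of the 14 libraries, as log2 CPM minus its mean over the libraries, with genes ordered by role and libraries by group; colours are capped at 0.6 in either direction. Most rows are below their mean in replicate 2 of both shSCR groups and above it in ASP shDHPS replicates 1 and 3, and *Psmb8* and *Psmb9* are above their mean in those shSCR libraries and in all 3 ASP shGRIN2D libraries.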

How the data were processed

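The libraries held polyadenylated RNA of the cytosolic lysate, made with a stranded kit. To make the deposited counts, the authors used Trim Galore 0.6.6, STAR 2.6.1 on GRCm39 and Salmon 1.4.0 (versions from the submitters' processing notes), and rounded the estimates per gene to whole numbers. The authors kept only genes expressed in 2 or more replicates of a condition. Because Salmon assigns shared reads by estimation, *Psme2* and *Psme2b* are less certain. The authors' own comparison tables, which hold fold changes, p-values and gene set scores, were not used.

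TMM factors lay between 0.984 and 1.02. The quasi-likelihood test of edgeR 4.0.16 (R 4.3.3) was run on all 14 libraries, with a model of the 4 groups, and p-values were adjusted over 19525 genes by Benjamini-Hochberg. Called means an adjusted p under 0.05. Totals ran from 12731123 to 23231378 counts a library, CPM was scaled by TMM, and log2 CPM used a prior count of 2. Both knockdown comparisons share the 4 ASP shSCR libraries. Replicates differed by more than sampling noise (chi-square per degree of freedom 7.69 to 41.8 in 18 pairs). The fit was also run on simulated counts, drawn for each gene independently. They held no shift shared by the genes of a library, so that run cannot show how the fit handles such shifts.

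The members, gene lists and tests were chosen with earlier results of these data known. Values per library are given for the catalytic genes and their replacements, for called members, and, where fewer than 5 were called, for the 5 with the smallest p, of which some are given as group means. Transcript lengths and GC content came from GENCODE vM21 by gene identifier (18948 genes, 97%), and promoters from RefSeq on GRCm38.p6, with the bases after the start left out.

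Alternatives were the DESeq2 1.42.0 Wald test, RLE factors, library size alone, filterByExpr (13421 genes), robust estimation of the prior, a fit restricted to the compared groups, a replicate block, testing against a 1.5-fold change, and leaving out each library or replicate 2 of both shSCR groups. A GC and length correction by splines, with and without the block, was added after the data were examined. Whether numbers pair libraries was read from the correlation of their deviations from the means of their groups. It was 0.514, 0.287 and 0.203 for numbers 2, 3 and 4 between ASP shSCR and NoASP shSCR. This was taken as pairing, although the highest value was that of replicate 2, which stood apart in both groups. Between ASP shDHPS and ASP shSCR it was 0.258, 0.195, 0.201 and 0.0404, and pairing there was left undecided. Between ASP shGRIN2D and ASP shSCR it was -0.101, -0.117 and 0.042. The hairpin comparison gave 0.00533, 0.0328 and 0.231. What a number stands for is not given in the sources used here.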

Additional observations from a re-analysis of the deposited data

Results flagged for a closer look

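A sample far from the other 3 of its group was found in 2 of 32 sets of values tested (16 measures in each of the groups of 4), where chance gives about 1 in 20. *Psmd8* was at 116.9 CPM in ASP shSCR replicate 2, while the other libraries of that group lay between 140.7 and 145.2. *Psmb9* was at 7.128 CPM in the same library, while the others lay between 3.323 and 3.928. With that library left out, *Psmd8* had a log2 fold change of 0.41 with the *Dhps* hairpin (adjusted p = 0.013, edgeR) in place of 0.48, and *Psmb9* one of 0.16 in place of -0.15. The cause of the position of this library was not tested.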

How the results depend on the processing

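With aspartate and with the *Grin2d* hairpin, 0 of the 46 members were called in every alternative, and the median log2 fold change kept its direction with the *Grin2d* and *Dhps* hairpins (0.031 to 0.0847 and 0.0732 to 0.156) but not with aspartate, where it was -0.0332 to 0.0981 without 1 library, the highest without NoASP shSCR replicate 3. With the *Dhps* hairpin, 3 members were called, against 0 in the test against a 1.5-fold change, 1 with only the 2 groups or with number 2 of both shSCR groups left out, 5 and 6 with the replicate block on the 2 groups and on all libraries, 6 with the GC and length correction and the block together, and 1 to 4 without 1 library. Of the 6 called with the correction and the block together, 4 were higher and 2 lower. *Psmb6* missed with RLE factors (adjusted p = 0.0501, edgeR). Between the hairpins 0 were called, against 1 with DESeq2 (*Psmd4*), 1 with the GC and length correction (*Psme1*), 2 with the block on all libraries and 4 with the correction and the block. *Psme1* was called lower with the correction alone, and of the 4 with the block too, 1 was higher and 3 lower. The cause of these changes in calls was not tested.

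In the aspartate comparison 5 of 6 libraries correlated best with their own number, which was taken as pairing but is not given by the labels. The replicate block there called 0 members and changed no call among them. Of all genes it called 64 on the 2 groups and 2 on all libraries, against 0. The p-values and intervals given for aspartate are those of the main fit, without the block. In the *Grin2d* and hairpin comparisons 1 of 6 and 2 of 6 libraries correlated best with their own number. In the *Dhps* comparison 5 of 8 did, so that pairing there was left undecided, and the main fit had no block. With the block on 2 groups, 363, 2026 and 1527 genes were called in the *Grin2d*, *Dhps* and hairpin comparisons, against 226, 824 and 550. With this block *Psmb8* was called with the *Grin2d* hairpin (adjusted p = 0.0308, edgeR) and *Psmb9* between the hairpins (adjusted p = 0.0337, edgeR). The GC and length correction alone called 402 genes with the *Grin2d* hairpin, and leaving out number 2 of both shSCR groups 849 between the hairpins.

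Uncalled genes near 0 changed sign. With aspartate *Psmb5* was at 0.00112 with DESeq2, 0.00115 with RLE and 0.0041 with 2 groups, and -0.12 to 0.131 without 1 library. *Psmb6* was at -0.000822 and -0.0209 with the block on all libraries and on 2 groups, -0.0483 with the GC and length correction, -0.0459 with both, and -0.0489 to 0.131 without 1 library. *Psmb10* was at -0.0265 without number 2 of shSCR and at -0.0651 to 0.115 without 1 library, *Psmb8* at -0.109 to 0.371 and *Psmb9* at -0.112 to 0.606. With the *Dhps* hairpin *Psmb7* was at -0.00357 with the correction and -0.000554 with the block too. *Psmb9* and *Psmb10* were at 0.166 and 0.052 without number 2 of shSCR, and at -0.282 to 0.161 and -0.133 to 0.0474 without 1 library. Between the hairpins *Psmb5* was at -0.035 with the correction, -0.0375 with the block too and -0.031 to 0.0579 without 1 library, and *Psmb7* at -0.0342 and -0.0545 with the correction alone and with the block. The depth limits *Psmb9* most, with 50 counts in its lowest library.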
